A study of Mus musculus with 18 samples.

Results

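Loss of the transcription factor Runx3 was compared with its presence in the double-positive (DP) natural killer (NK) cells of the mouse spleen, which carry both CD27 and CD11b. The arrays were taken by their labels: 3 DP arrays from Runx3 -/- mice (KO) and 3 DP arrays from Runx3 +/+ mice (WT), 6 of the 18 arrays in the series, over all 35399 probe sets. The other 12 arrays hold the same genotypes in less mature CD27+CD11b- cells (the CD27 subset) and in CD27-CD11b+ cells (the CD11b subset), with 3 arrays a group. All mice, WT included, were of strain ICR, 6 weeks old, male or female, and had received IL15/Ra complexes 2 times, 2 days apart, so no group shows unstimulated cells. Splenocytes were enriched for NK cells by negative selection and the NKp46+ cells were sorted by flow cytometry. The labels name neither the allele nor the cells in which it is deleted, and they do not say whether an array holds 1 animal or a pool, so p-values measure the spread between these samples, which may be technical. The values are log2 signals, so a difference of 1 is 2-fold. A probe set was called when its Benjamini-Hochberg adjusted p, from a limma model over all 18 arrays and all probe sets, was under 0.05.

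Runx3 belongs to the Runt family of transcription factors, which bind DNA together with the partner protein Cbfb and can activate or repress a gene depending on its context. NK cells mature from CD27+CD11b- through DP to CD27-CD11b+ cells, and interleukin-15 sustains their survival and drives their division. DP cells are the stage at which both surface markers are present and effector functions are already strong.

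One library stood apart before any comparison was made. KO replicate 3 deviated most from its group mean, with an SD of deviations over all probe sets of 0.247, against 0.165 to 0.218 on the other 5 DP arrays. Its S phase and mitotic genes lay above those of every other DP array, as given below. Xist, the RNA of the inactive X chromosome, was at 12.87 on KO replicate 3, at 5.56 and 5.45 on KO replicates 1 and 2, and at 5.32, 12.66 and 12.92 on WT replicates 1 to 3. Xist therefore did not follow the genotype, but it did separate KO replicate 3 from the other KO arrays. With Xist as a covariate 285 probe sets were called, and the 30 genes with the largest changes and Runx3 all stayed called. Results are given with all 6 DP arrays and then without KO replicate 3.

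With all arrays, 140 probe sets (0.395% of those tested) were called in DP cells, 60 higher in KO (0.169%) and 80 lower (0.226%). They name 106 genes, 43 higher and 63 lower, and 25 of the higher and 20 of the lower changed more than 2-fold. On all 140 the KO arrays lay wholly above or wholly below the WT arrays, which was so for 14.6% of all probe sets. When the 3 arrays of KO replicate 3 (one in each subset) were left out, 197 probe sets (0.557%) were called, 129 higher (0.364%) and 68 lower (0.192%). When the DP array of KO replicate 3 alone was left out, 81 (0.229%) were called, 47 higher (0.133%) and 34 lower (0.096%). Of the 140, 98 were called in the first of these fits and 75 in the second, and all 140 kept their direction. Other single arrays mattered as much: 46 probe sets were called without WT replicate 2, 63 without WT replicate 3 and 54 without KO replicate 1. A fit on the 6 DP arrays alone called 17 (0.048%), 9 higher (0.0254%) and 8 lower (0.0226%). Of the 140, 27 have no single gene symbol, and the largest change of all is among them: probe set 10560919 stood at 7.67, 6.66 and 5.55 in WT and at 10.36, 10.61 and 10.35 in KO, a difference of 3.81 ± 0.60 (adjusted p = 0.0105), lost without WT replicate 2, WT replicate 3 or KO replicate 1 (up to 0.0603). The change of all probe sets with and without KO replicate 3 is drawn in the plot of change against mean signal.

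**Figure D1:**
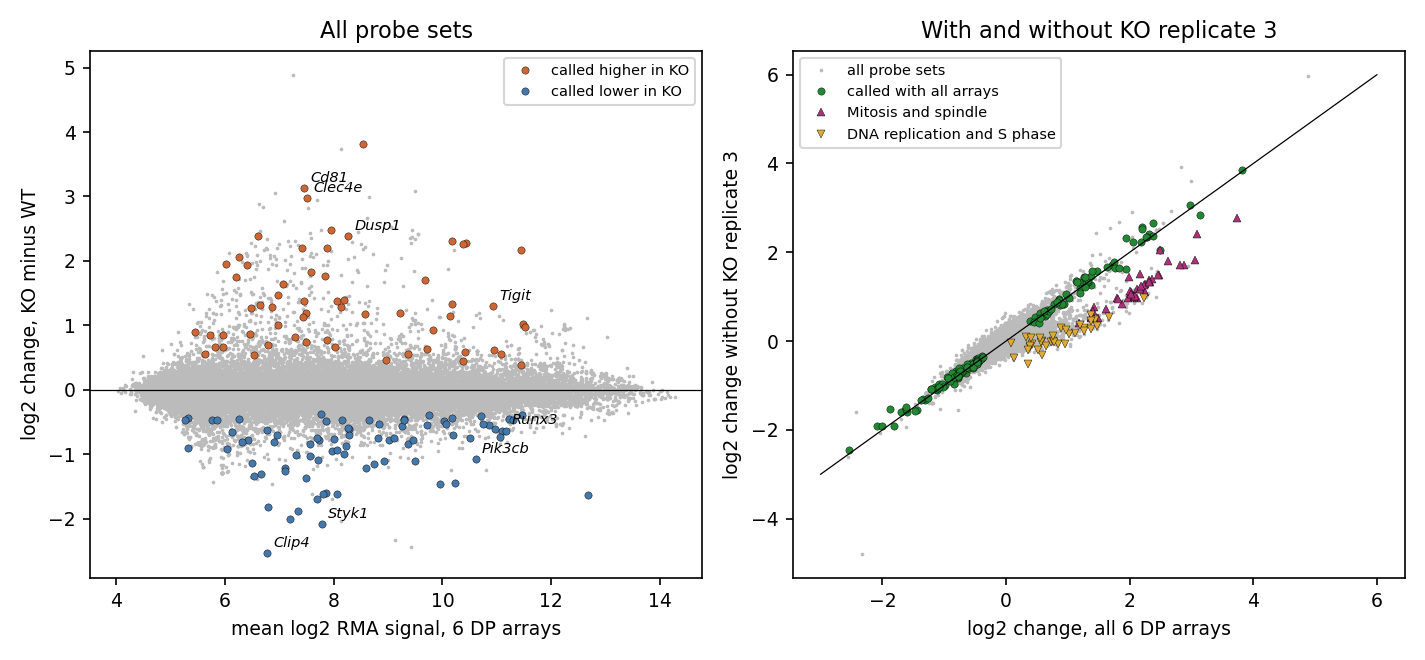
Left, the log2 change in DP cells (KO minus WT) against the mean log2 signal of the 6 DP arrays, with each of 35399 probe sets as a grey point, the 60 called higher in orange and the 80 called lower in blue. Right, the change without KO replicate 3 against the change with all 6 DP arrays: the 140 called probe sets in green lie near the line of equality, while the mitosis genes (purple, median 2.12 with all arrays and 1.16 without) and the S phase genes (yellow, 0.76 and 0.06) lie below it.

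The targeted gene and the sorting markers were read first. The 1 Runx3 probe set stood at 11.40, 11.46 and 11.59 on the WT arrays and at 10.89, 10.90 and 10.75 on the KO arrays. The groups did not overlap, and Runx3 fell by 0.63 ± 0.11 (SE, 1.55-fold, adjusted p = 0.0175). Signal remained in the KO arrays, and the position of its probes against the deletion was not analysed here. The Runx3 call was lost without WT replicate 2, WT replicate 3, KO replicate 1 or KO replicate 3, with an adjusted p of up to 0.103 (without WT replicate 3). The related factor Runx1 differed by 0.23 ± 0.11 (adjusted p = 0.537) and the partner gene Cbfb by 0.01 (adjusted p = 0.990).

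The transcripts of the markers that define the sort were at high signal in both genotypes. Ncr1, which encodes NKp46, differed by -0.06 (adjusted p = 0.867) at a signal of 13.55 to 13.81 on every DP array. Cd27 stood at 11.56, 11.67 and 11.55 in WT and at 11.83, 11.71 and 11.03 in KO (adjusted p = 0.957), with the groups overlapping. Itgam, the gene of CD11b, stood at 12.37, 12.43 and 12.30 in WT and at 11.83, 11.98 and 11.59 in KO. Each Itgam value in KO lay below each in WT, but the difference of -0.57 did not pass the test (adjusted p = 0.510). Tbx21 and Eomes, the T-box factors that specify NK cells, differed by -0.05 and -0.11 (adjusted p = 0.912 and 0.703).

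Cd81 and Clec4e had the largest rises among the named genes. Cd81, a tetraspanin that organises receptors in the membrane, stood at 5.80, 6.07 and 5.80 in WT and at 8.94, 8.52 and 9.61 in KO. Its highest value was that of KO replicate 3, and the gap between the genotypes was more than 2 log2 units. Cd81 rose by 3.13 ± 0.31 (8.78-fold, adjusted p = 0.000497) and by 2.84 without KO replicate 3 (adjusted p = 1.13e-05). Clec4e, the C-type lectin receptor Mincle, which senses glycolipids of microbes and dead cells, stood at 6.16, 5.96 and 5.94 in WT and at 9.17, 8.99 and 8.84 in KO. The 3 arrays of each genotype lay close together, and KO replicate 3 was no outlier. Clec4e rose by 2.98 ± 0.21 (7.88-fold, 95% interval 5.81 to 10.7, adjusted p = 2.33e-05), the lowest adjusted p in the comparison. Another tetraspanin, Tspan32, stood at 11.02, 10.88 and 11.18 in WT and at 12.15, 12.05 and 11.80 in KO and rose by 0.97 (adjusted p = 0.0099). Of 32 integrin and tetraspanin genes, Cd81 and Tspan32 were called with and without KO replicate 3, and none was called lower. Over all genes 0.216% were called higher with all arrays and 0.502% without the 3 KO replicate 3 arrays. The list's median was 0.00 against -0.01 over 19938 genes. The Tspan32 call was lost without WT replicate 2 (adjusted p = 0.0632) or KO replicate 1.

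The paired receptors Cd226 and Tigit, which bind nectin-like molecules on target cells, both rose. Cd226, an activating receptor also called DNAM-1, stood at 9.52, 9.51 and 9.50 in WT and at 10.86, 10.92 and 10.72 in KO. Tigit, an inhibitory receptor for the same ligands, stood at 10.32, 10.37 and 10.18 in WT and at 11.66, 11.54 and 11.56 in KO. For both genes the spread within a genotype was far smaller than the gap between genotypes. Cd226 rose by 1.32 ± 0.14 (2.50-fold, adjusted p = 0.000811) and Tigit by 1.30 ± 0.15 (2.46-fold, adjusted p = 0.00101), and both calls held when each DP array was left out in turn. The receptors of this family that did not pass the test were Crtam, at -1.20 (adjusted p = 0.181), and Cd96, at -0.59 (adjusted p = 0.116). Klrb1a, a lectin-like receptor of the NK gene complex, rose by 1.01 (adjusted p = 0.0262), a call lost without any one of 5 arrays (adjusted p up to 0.141, without WT replicate 2; KO replicate 3 is among the 5, at 0.121, and only WT replicate 1 is not). Of 24 activating and adhesion receptors 3 were called, all higher (Cd226, Tigit and Klrb1a), and of 20 inhibitory receptors only Tigit was called, where 0.216% of all genes were called higher and 0.306% lower by their brightest probe set. Without the 3 KO replicate 3 arrays those shares were 0.502% and 0.276%, and the activating list again had 3 called higher, with Cd84 in place of Klrb1a (adjusted p = 0.0665).

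Dusp1, the phosphatase that switches off MAP kinases, stood at 7.33, 7.05 and 6.83 in WT and at 9.60, 9.28 and 9.48 in KO. The groups lay nearly 2 log2 units apart at their closest, and Dusp1 rose by 2.38 ± 0.24 (5.21-fold, adjusted p = 0.000506; 2.37 without KO replicate 3). It was the only 1 of 35 immediate early and MAP kinase phosphatase genes to be called, where 0.216% of all genes were called higher. Ptger3, a receptor for prostaglandin E2, stood at 5.06, 4.99 and 4.95 in WT and at 5.92, 5.76 and 6.04 in KO and rose by 0.90 (adjusted p = 0.000363). Ramp1, the partner subunit of the receptor for the neuropeptide CGRP, rose by 1.32 (adjusted p = 0.000811). In WT both lay below the median signal of the probe sets, 6.33, and Ptger3 did so in KO too. Both were called in every fit that left out a DP array. The WT arrays of Cd81, Clec4e, Il10 and Mest also lay below that median. Inpp4b, a phosphatase of phosphoinositides, rose by 1.40 (adjusted p = 0.0102, lost without WT replicate 3 or KO replicate 1, up to 0.0612). The kinase gene Cdk18 rose by 1.47 (adjusted p = 0.00153) and Pitpnm2, a phosphatidylinositol transfer protein gene, by 1.38 (adjusted p = 0.00209).

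Genes of cytokine and innate defence pathways were called in small numbers. Il10, which encodes a cytokine that damps inflammation, stood at 5.50, 5.36 and 5.45 in WT and at 7.45, 6.66 and 8.0 in KO. All 3 KO arrays lay above the WT arrays, with a wide spread among them and KO replicate 3 the highest. Il10 rose by 1.93 ± 0.34 (3.82-fold, adjusted p = 0.0208), and its call was lost without KO replicate 3 in the 17-array fit (adjusted p = 0.102, change 1.62), held at 0.0124 without all 3 KO replicate 3 arrays, and was also lost without WT replicate 2, WT replicate 3 or KO replicate 1. It was the only 1 of 35 cytokine and chemokine genes called with all arrays. Of 28 type I interferon response genes, Slfn1 (change 2.20, adjusted p = 0.017) and Oas3 (1.64, adjusted p = 0.00395) were called higher and none lower. Over all genes 0.216% were called higher and 0.306% lower. Slfn1 stood at 6.84, 5.96 and 6.12 in WT and at 8.75, 8.98 and 7.80 in KO, and its call was lost without WT replicate 2, WT replicate 3, KO replicate 1 or KO replicate 2 (up to 0.094, without WT replicate 2). The list's median was -0.02, or 0.16 without KO replicate 3. Nlrp1a, a sensor that assembles an inflammasome, rose by 1.76 (3.39-fold, adjusted p = 0.00542).

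Other rises fell outside the fixed lists or in lists where few members moved. Mest, an imprinted gene of the hydrolase family, stood at 5.42 on each WT array and at 8.10, 8.06 and 7.24 in KO. KO replicate 3 was the lowest of the KO arrays, still clear of WT, and Mest rose by 2.38 ± 0.27 (5.20-fold, adjusted p = 0.00112; 2.66 without KO replicate 3). Lrrn4, a leucine-rich repeat membrane protein gene, rose by 2.19 (adjusted p = 0.0187), a call lost without WT replicate 2, WT replicate 3, KO replicate 1 or KO replicate 2 (up to 0.110, without WT replicate 3). Tmem176b, a membrane protein gene, rose by 1.83 (adjusted p = 0.0444), a call lost without any one of the 6 arrays (up to 0.232, without WT replicate 3). Dtx1, the Notch pathway gene Deltex, rose by 1.14 (adjusted p = 0.0307) and was the only 1 of 30 TGF-beta and Notch genes called with all arrays. The calls of Dtx1 and of the hypoxia factor gene Epas1 (1.13, adjusted p = 0.021) were lost without WT replicate 2, WT replicate 3, KO replicate 1 or KO replicate 2, and that of Dtx1 also without WT replicate 1 (up to 0.152 and 0.120). Nfe2, a transcription factor gene, rose by 1.0 (adjusted p = 0.0049) and Metrnl, a secreted protein gene, by 0.78 (adjusted p = 0.00706). Cish, a feedback inhibitor of cytokine signalling, was the only 1 of 27 interleukin-2 and interleukin-15 response genes called, at 0.55 (adjusted p = 0.0468). Its call was lost without any one of the 6 arrays (up to 0.230, without WT replicate 2). Over all genes 0.216% were called higher with all arrays.

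**Figure D2:**
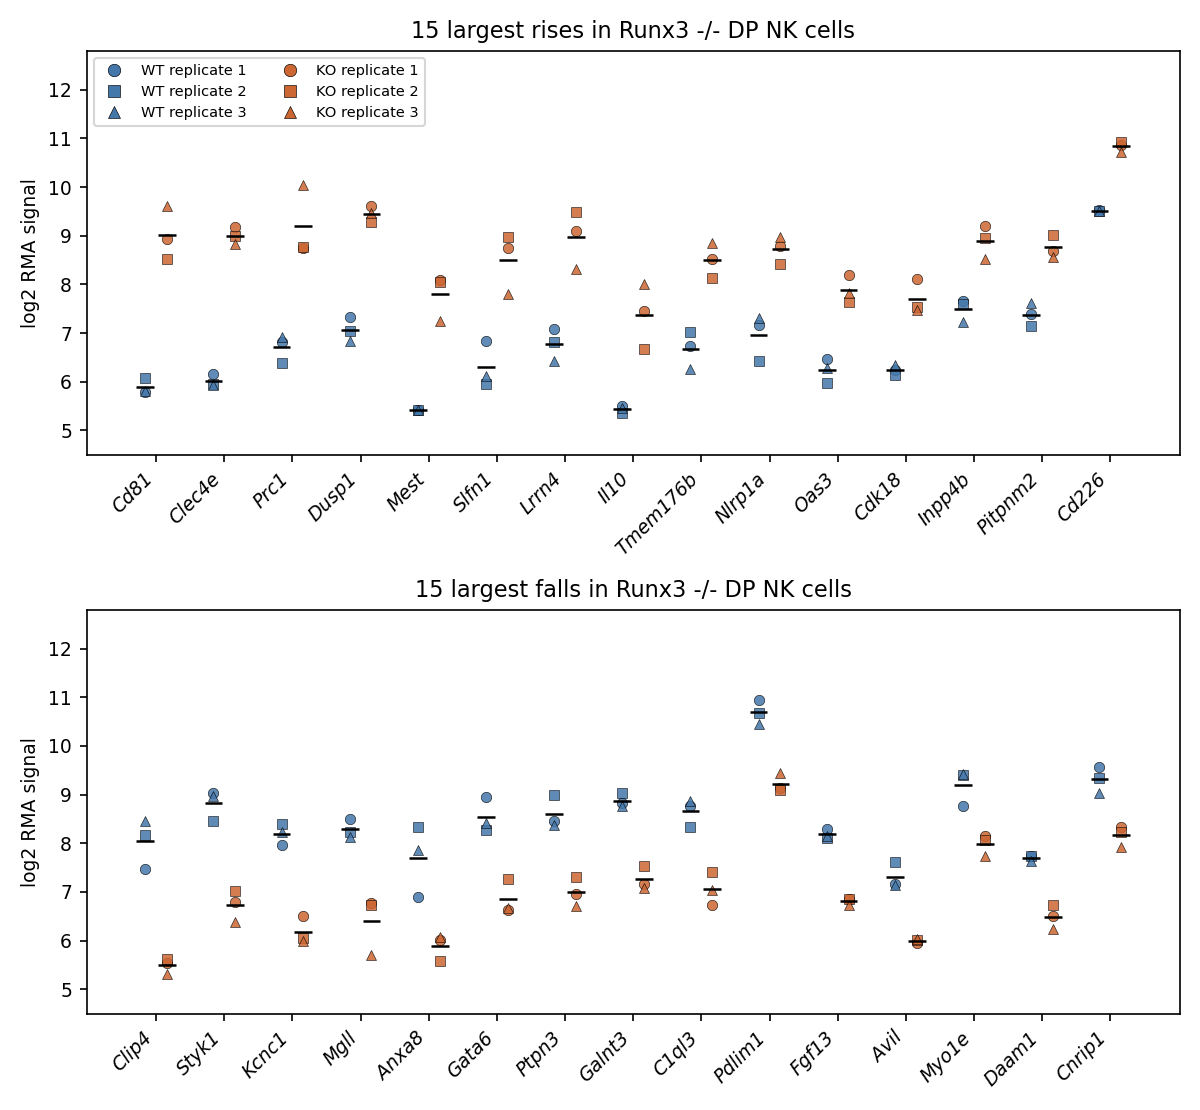
Log2 RMA signal of the 15 genes with the largest rises (top) and the 15 with the largest falls (bottom) in Runx3 -/- DP cells, by array; circles, squares and triangles are replicates 1, 2 and 3, blue is WT, orange is KO, and bars are group means. In each gene the 3 KO points lie wholly on one side of the 3 WT points, as the rule that chose them required, and KO replicate 3 is, for example, the highest KO array for Cd81, Prc1 and Il10 and the lowest for Mest, Slfn1 and Lrrn4.

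Among the genes that fell, Clip4, a gene of a microtubule-binding CAP-Gly protein, changed most. It stood at 7.47, 8.18 and 8.47 in WT and at 5.55, 5.63 and 5.31 in KO. The KO arrays lay close together while WT replicate 1 was lower than the other WT arrays. Clip4 fell by 2.54 ± 0.20 (5.82-fold, 95% interval 4.32 to 7.86, adjusted p = 7.63e-05) and fell by 2.45 without KO replicate 3 (adjusted p = 0.00116). Other genes of the cytoskeleton were also called lower: the actin-binding Pdlim1 fell by 1.47 on 1 probe set and by 1.45 on its other, and Avil (advillin) by 1.31, Myo1e (a class I myosin) by 1.21, the formin gene Daam1 by 1.21, Camsap2, which binds microtubule minus ends, by 1.11, Tmsb15a by 0.77 and the formin gene Diaph2 by 0.75. These genes were grouped by known function after their values were seen, with no test of the group. The calls of Clip4, Avil and Tmsb15a held when each DP array was left out in turn. Each of the other 5 was lost without at least 2 arrays, among them WT replicate 2 in all 5 and WT replicate 3, KO replicate 1, KO replicate 2, KO replicate 3 or WT replicate 1 in some (adjusted p up to 0.0906 for Pdlim1, 0.0798 for Myo1e, 0.0603 for Daam1, 0.0871 for Camsap2 and 0.141 for Diaph2).

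Styk1, which encodes a membrane protein with a kinase-like domain, stood at 9.04, 8.46 and 8.98 in WT and at 6.79, 7.02 and 6.39 in KO. The groups were separated by more than 1 log2 unit, and Styk1 fell by 2.09 ± 0.22 (4.26-fold, adjusted p = 0.000647). Pik3cb, the catalytic p110-beta subunit of phosphoinositide 3-kinase, stood at 11.17, 11.15 and 11.13 in WT and between 9.99 and 10.24 in KO and fell by 1.08 ± 0.11 (2.11-fold, adjusted p = 0.000647). The tyrosine phosphatase gene Ptpn3 was lower in KO on all 12 of its probe sets and called on 7, with a fall of 1.62 on the most changed (adjusted p = 0.00532). Of 33 signalling and phosphatase genes, 3 were called lower (Styk1, Ptpn3 and Ptpn4) and 1 higher (Inpp4b). Over all genes 0.306% were called lower and 0.216% higher. The median of the 33 was -0.13, or -0.03 without KO replicate 3. Ptpn4 fell by 0.49 (adjusted p = 0.0347) and was lost without every array but KO replicate 2 (up to 0.192, without WT replicate 3). Outside that list, Ksr1, a scaffold of the MAP kinase cascade, fell by 0.99 and Rasa2, which turns off Ras, by 0.47; both were lost without WT replicate 2, WT replicate 3, KO replicate 1 or KO replicate 3 (up to 0.0761 and 0.124). Ern1, the IRE1 sensor of unfolded protein, fell by 0.74 (adjusted p = 0.00532) and kept its call in each such fit.

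Kcnc1, a voltage-gated potassium channel gene, stood at 7.96, 8.39 and 8.23 in WT and at 6.51, 6.06 and 6.00 in KO. The highest KO value was still more than 1 log2 unit below the lowest WT value, and Kcnc1 fell by 2.01 ± 0.19 (4.02-fold, adjusted p = 0.000363). Fgf13, an intracellular fibroblast growth factor homologue that binds sodium channels, fell by 1.37 (adjusted p = 0.00331). Mgll, which breaks down monoacylglycerols including an endocannabinoid, stood at 8.50, 8.24 and 8.12 in WT and at 6.77, 6.74 and 5.71 in KO and fell by 1.88 (3.69-fold, adjusted p = 0.0127; 1.54 without KO replicate 3, the lowest array), a call lost without WT replicate 2 (0.0643). Gata6, a zinc-finger transcription factor gene, stood at 8.96, 8.28 and 8.41 in WT and at 6.63, 7.26 and 6.66 in KO. It fell by 1.70 ± 0.30 (3.25-fold, adjusted p = 0.024), but the call was lost in both fits without KO replicate 3 (0.101 and 0.115) and without KO replicate 1 or any one WT array (up to 0.121). Of 31 NK transcription factor genes, Gata6 and Runx3 were the 2 called, both lower, where 0.306% of all genes were called lower. The annexin gene Anxa8 fell by 1.82 (adjusted p = 0.0449), a call lost without every array but WT replicate 1 (up to 0.214, without WT replicate 2). Galnt3, which starts mucin-type sugar chains, fell by 1.61 (adjusted p = 0.0177) and C1ql3, a secreted protein gene, by 1.60 (adjusted p = 0.00969); Galnt3 was lost without WT replicate 2, WT replicate 3, KO replicate 1 or KO replicate 3 (up to 0.0952) and C1ql3 without WT replicate 3 or KO replicate 1 (up to 0.0591).

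Over the 106 named genes, 29 stayed called when each of the 6 DP arrays was left out in turn, 15 higher and 14 lower. The 15 were Cd81, Clec4e, Dusp1, Mest, Nlrp1a, Oas3, Cdk18, Pitpnm2, Cd226, Ramp1, Tigit, Usp6nl, Nfe2, Ptger3 and Metrnl. The 14 were Clip4, Styk1, Kcnc1, Ptpn3, Fgf13, Avil, Zc2hc1a, Pik3cb, Tmem42, Gipc2, Tmsb15a, Ern1, Slc39a6 and Tmem131. Of the 30 genes with the largest changes, 6 were not called without the 3 arrays of KO replicate 3 (Tmem176b, Anxa8, Gata6, Galnt3, Myo1e and Cnrip1), and Il10 was added to these when the DP array alone was left out. Of the 43 genes called higher, 36 were called without the 3 arrays of KO replicate 3 and 32 without the DP array alone. Of the 63 called lower, 39 and 25 were.

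Promoters are shown for the genes with the largest changes whose RefSeq promoter holds a core sequence known to be bound by Runt proteins, 2 of those called higher and 2 of those called lower. The letters searched were TGTGGT and TGCGGT on either strand, so ACCACA and ACCGCA on the strand printed; they do not overlap each other, and capitals mark each match. Each sequence runs 5′ to 3′ on the gene's strand in build GRCm38.p6, from 250 bases before the annotated start to 50 after it.
Clec4e, chr6:123289822-123290121, minus strand, match beginning 114 bases before the start: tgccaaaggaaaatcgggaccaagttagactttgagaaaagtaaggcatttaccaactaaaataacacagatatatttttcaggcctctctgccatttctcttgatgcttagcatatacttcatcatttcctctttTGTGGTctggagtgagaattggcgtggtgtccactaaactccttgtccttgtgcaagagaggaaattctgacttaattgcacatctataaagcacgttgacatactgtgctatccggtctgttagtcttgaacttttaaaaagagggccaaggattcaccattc
Mest, chr6:30733256-30733555, plus strand, 1 of 3 promoters, match beginning at base 28 after the start: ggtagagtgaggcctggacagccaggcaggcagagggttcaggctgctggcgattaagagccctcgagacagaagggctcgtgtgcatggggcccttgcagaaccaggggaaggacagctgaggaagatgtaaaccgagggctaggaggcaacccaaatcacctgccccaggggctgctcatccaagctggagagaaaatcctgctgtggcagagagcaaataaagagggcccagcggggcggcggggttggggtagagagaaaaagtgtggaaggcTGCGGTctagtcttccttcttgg
Clip4, chr17:71769441-71769740, plus strand, 1 of 3 promoters, each with a match, here beginning 25 bases before the start: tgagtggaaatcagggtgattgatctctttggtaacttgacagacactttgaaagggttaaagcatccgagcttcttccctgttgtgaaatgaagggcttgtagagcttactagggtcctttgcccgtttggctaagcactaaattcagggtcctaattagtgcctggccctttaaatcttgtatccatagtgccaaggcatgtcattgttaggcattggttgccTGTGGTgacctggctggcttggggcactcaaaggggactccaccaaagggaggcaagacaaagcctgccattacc
Anxa8, chr14:34085729-34086028, plus strand, match on the opposite strand beginning 15 bases before the start: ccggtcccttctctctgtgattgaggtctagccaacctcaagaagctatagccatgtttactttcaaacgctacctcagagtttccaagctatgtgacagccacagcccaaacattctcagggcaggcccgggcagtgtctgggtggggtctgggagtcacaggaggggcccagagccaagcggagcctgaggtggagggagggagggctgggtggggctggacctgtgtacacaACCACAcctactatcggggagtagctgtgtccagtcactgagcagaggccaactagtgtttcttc
Of the 43 genes called higher, 34 had a promoter in the table and 12 of those (35.3%) held a match. Of the 63 called lower, 54 had one and 16 (29.6%) held a match. Among all 15614 measured genes with a promoter, 3777 (24.2%) held a match in at least 1 promoter. Counted by promoter, the shares were 12 of 52 (23.1%), 18 of 69 (26.1%) and 21.2% of 19177. A match says only that these letters are in the window, and the genes with several promoters have more chances to hold one.

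None of 13 NK lineage genes, 22 mature NK markers or 23 cytotoxic granule and serpin genes was called with or without KO replicate 3, and their medians were -0.05, 0.15 and -0.06. The largest change among the mature markers was that of Kcnj8, a potassium channel gene, at 8.79, 6.84 and 6.21 in WT and 10.51, 9.89 and 9.43 in KO. Its groups did not overlap, but the WT arrays spread over more than 2 log2 units and the difference of 2.67 did not pass the test (adjusted p = 0.296). Serpinb9b, an inhibitor of granzymes, differed by 1.11 (adjusted p = 0.170) and the granzyme gene Gzmb by 0.69 (adjusted p = 0.264), with the KO arrays above the WT arrays for both. Of 27 markers of immature NK cells and of group 1 innate lymphoid cells, 3 were called higher (Tmem176b, Inpp4b and Cd226) and none lower. Over all genes 0.216% were called higher and 0.306% lower. The list's median was 0.07. The member with the largest difference, the chemokine receptor gene Cxcr4, stood at 9.58, 9.37 and 8.54 in WT and at 10.34, 11.11 and 11.67 in KO, and its difference of 1.88 did not pass (adjusted p = 0.123). No chemokine receptor gene of 28 and no cytokine receptor gene of 27 was called, nor was any gene of glycolysis, cholesterol synthesis, the BCL2 family or the stress list. Gpr25, an orphan receptor gene in the chemokine receptor list, had the lowest adjusted p of that list, at -1.70 (adjusted p = 0.0531; -1.77 and 0.0508 without the 3 KO replicate 3 arrays).

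The mean log2 signal of 41 mitosis and spindle genes was 6.28, 6.24 and 6.24 on the WT arrays and 7.75, 7.18 and 10.24 on the KO arrays. KO replicate 3 was the highest of the 6 arrays for all 41 genes, and for all 41 KO replicates 1 and 2 also lay above every WT array. All 3 KO arrays thus lay above all 3 WT arrays for the 41. Groups that did not overlap, in either direction, were found for 14.6% of all probe sets. How often KO replicates 1 and 2 lay above WT over all genes was not counted. The median change was 2.12 with all arrays and 1.16 without KO replicate 3, against -0.01 over all genes in both cases. With all arrays 1 of the 41 was called, Prc1, which bundles microtubules at the spindle midzone; it stood at 6.81, 6.38 and 6.93 in WT and at 8.75, 8.77 and 10.04 in KO and rose by 2.48 ± 0.39 (5.59-fold, adjusted p = 0.0105), a call lost without WT replicate 2 (0.0697). Without the 3 arrays of KO replicate 3, 17 of the 41 were called, all higher, where 0.502% of all genes were called higher. Leaving out the DP array of that replicate alone left 1, again Prc1. The same replicate number was high in the other subsets too: the mean was 9.79 on CD27 KO replicate 3 and 9.83 on CD11b KO replicate 3, against 6.13 to 7.87 on the other 10 arrays of those subsets.

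By mean signal of S phase genes, KO replicate 3 stood far above WT, KO replicate 1 slightly above it and KO replicate 2 within its range. The mean of 35 DNA replication genes was 7.07, 7.05 and 7.16 in WT and 7.29, 7.10 and 9.44 in KO. All 35 were highest on that array. Their median change was 0.76 with it and 0.06 without it, and none was called in either case. KO replicates 1 and 2 both lay above every WT array for 10 of the 35, so for these 10 the KO and WT groups did not overlap. That was so, in either direction, for 14.6% of all probe sets. Rrm2, the small subunit of ribonucleotide reductase, stood at 6.42, 5.87 and 5.91 in WT and at 7.41, 6.69 and 10.81 in KO (adjusted p = 0.565; 0.104 without the 3 KO replicate 3 arrays).

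**Figure D3:**
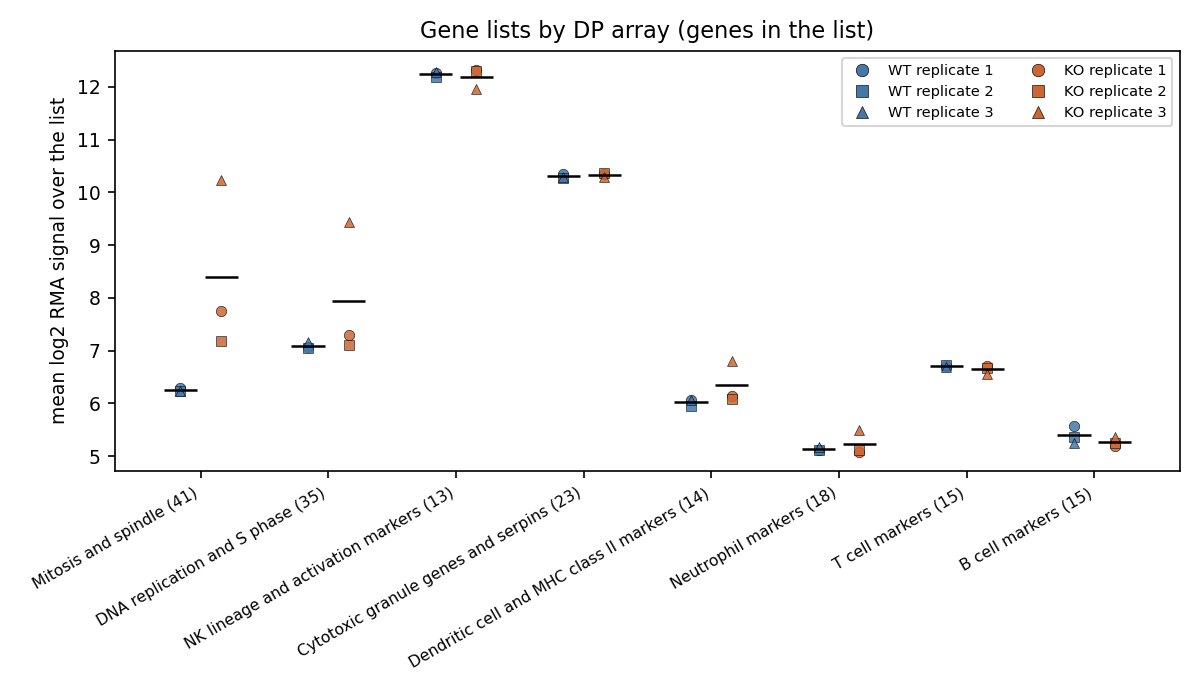
Mean log2 RMA signal of 8 gene lists on each DP array, with the number of genes measured in brackets; symbols and colours mark replicate and genotype, and bars are group means. KO replicate 3 (orange triangle) lies at 10.24 for mitosis and 9.44 for S phase genes, while the other KO arrays lie at 7.75 and 7.18 for mitosis and near WT for S phase.

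Markers of other cells were measured for the same arrays. No member of the T cell, B cell, plasma cell, dendritic cell, macrophage, neutrophil, mast cell or erythroid and platelet lists was called with or without KO replicate 3. Over all genes 0.216% were called higher and 0.306% lower with all arrays, and 0.502% and 0.276% without the 3 KO replicate 3 arrays. At such shares short lists may hold no called gene. In all, 10 members lay more than 1 log2 unit above all other arrays on KO replicate 3: the MHC class II genes Cd74, H2-Aa, H2-Ab1 and H2-Eb1, the progenitor receptor gene Flt3, the granule genes Mpo, Prtn3 and Ctsg, and the mast cell and basophil genes Cpa3 and Mcpt8. Most members of these lists did not, and the share of all genes that did was not counted. Cd74, the invariant chain, was at 8.58 there and at most 5.37 elsewhere, and Mpo, the myeloperoxidase of neutrophil precursors, at 8.04 and at most 5.04. The whole dendritic and MHC class II list (14 genes) had a mean of 6.80 on KO replicate 3 and of 5.95 to 6.15 elsewhere, the neutrophil list (18 genes) 5.49 against 5.09 to 5.18, and the mast cell and basophil list (14 genes) 5.97 against 5.53 to 5.58. Summed on the linear scale and put back on log2, the dendritic list stood at 12.58 to 12.90 in WT and at 12.11 to 12.56 in KO, lowest on KO replicate 3, and the neutrophil list at 9.51 to 9.70 in WT and 9.49 to 10.01 in KO. The summed macrophage list was lower in KO, at 12.71 to 12.97 in WT and 12.14 to 12.47 in KO. The summed mast cell and basophil list was higher in KO, at 10.78 to 10.90 in WT and 10.99 to 11.19 in KO. In the T cell, B cell, plasma cell and erythroid lists the summed groups overlapped. Late neutrophil genes such as S100a8 and S100a9 were near the bottom of the scale on all 6 arrays, at 4.93 to 5.06 and 5.19 to 5.38. Cd72, a B cell receptor gene, was at 10.24 on WT replicate 1, 7.62 on WT replicate 2 and 5.32 to 6.26 on the others, whereas the B cell genes Cd79a, Ms4a1 and Pax5 lay between 4.59 and 5.07 on all 6. The part of other cells in the values of KO replicate 3 was not tested, and in sorted bulk samples more cells of a type and more RNA per cell cannot be told apart.

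Leaving out the arrays of KO replicate 3 brought 81 named genes into the called set, 64 higher and 17 lower. The DP KO arrays left in this fit were low in Xist, as was only WT replicate 1 in WT. The part of Xist status in these calls was not tested. For 35 of the 64, KO replicate 3 was more extreme than the other KO arrays, and 16 of the 81 are members of the mitosis list. Ccna2, the S and G2 phase cyclin, stood at 6.25, 6.42 and 6.13 in WT and at 9.35, 8.72 and 11.96 in KO. The difference was 3.74 with all arrays (adjusted p = 0.132) and 2.77 without (adjusted p = 0.00247, but 0.490 when the DP array alone was left out). Ccnb2, a mitotic cyclin, behaved alike, at 8.19, 7.84 and 7.85 in WT and 10.73, 10.04 and 12.37 in KO, with 2.42 without KO replicate 3 (adjusted p = 0.0186, or 0.235 with only the DP array left out). Further genes of mitosis called only there were Bub1 (1.83), Kif18b (1.71), Nusap1 (1.70), Mki67 (1.52) and Aurkb (1.48), none of which was called when the DP array alone was left out (adjusted p = 0.516 for Mki67 and 0.865 to 0.878 for the other 4).

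For the other 29 of the 64, KO replicate 3 lay nearer to WT than its group did, and for 8 of them it lay within or below the WT range. The largest change among the 81 was that of Kcnma1, the large-conductance calcium-activated potassium channel gene, at 4.90, 4.75 and 4.76 in WT and at 12.11, 9.44 and 7.52 in KO. The KO arrays spread over more than 4 log2 units, and the difference was 4.89 with all arrays (adjusted p = 0.209) and 5.97 without KO replicate 3 (adjusted p = 0.0288, or 0.211 with only the DP array left out). A further Kcnma1 probe set differed by 0.11, so the 2 probe sets disagree. Dzip1 stood at 7.08, 6.38 and 7.0 in WT and at 8.91, 8.64 and 7.47 in KO (1.96, adjusted p = 0.00418, or 0.0383), and Lilr4b, an inhibitory immunoglobulin-like receptor gene, at 10.39, 10.07 and 9.75 in WT and 11.83, 11.49 and 10.47 in KO (1.59, adjusted p = 0.0402, or 0.0816). The integrin gene Itgad (1.47) and the death receptor gene Fas (1.30) were also called there, but not when the DP array alone was left out (adjusted p = 0.299 and 0.231). A further Itgad probe set differed by -0.01 without the 3 KO replicate 3 arrays, so its probe sets disagree. For Tgfb3, a TGF-beta ligand gene, KO replicate 3 at 7.37 lay below the WT values of 7.54, 7.47 and 7.50 while the other KO arrays were at 8.76 and 8.61. Among the falls, Ptprs, a receptor tyrosine phosphatase gene, stood at 8.44, 8.32 and 8.44 in WT and at 6.46, 6.49 and 7.41 in KO, so all KO arrays were lower. It fell by 1.93 without KO replicate 3 (3.81-fold, adjusted p = 3.02e-05, or 0.109 with only the DP array left out) and differed by -1.62 with all arrays (adjusted p = 0.122). Sulf2, which trims heparan sulphate, fell by 1.40, the inhibitory Fc receptor gene Fcgr2b by 1.06 and the transporter gene Abcc1 by 1.01 in that fit, with adjusted p of 0.0491, 0.0282 and 0.00959. With only the DP array left out none of these 3 was called (0.0871, 0.203 and 0.460), and Abcc1 on KO replicate 3, at 7.98, lay within the WT range of 7.80 to 8.16.

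**Figure D4:**
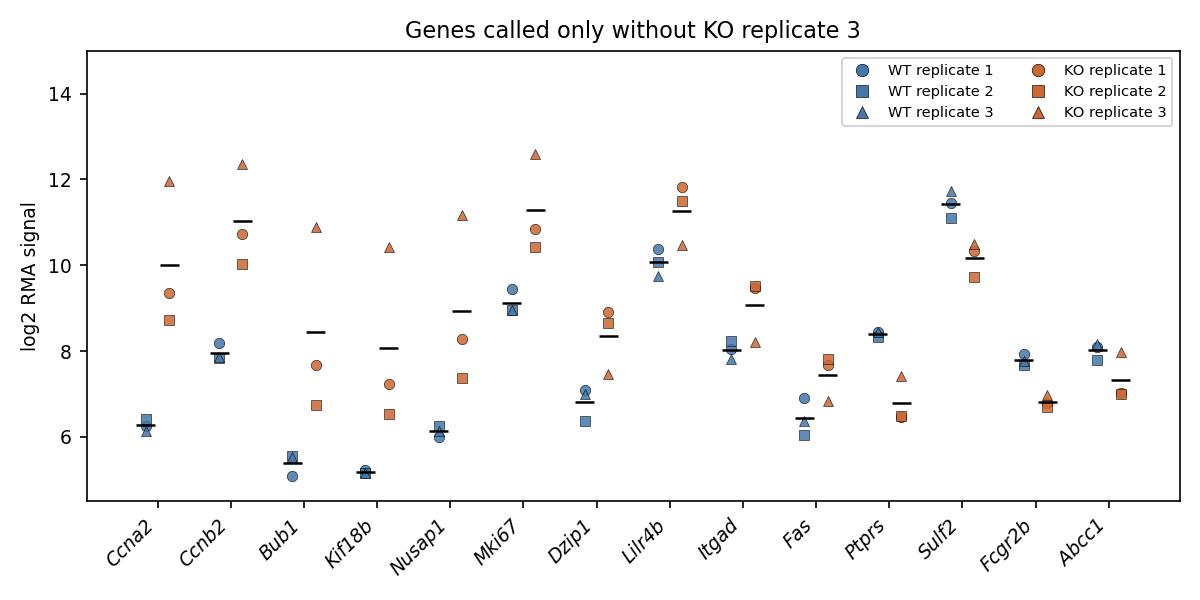
Log2 RMA signal on each DP array of 14 genes called without the 3 arrays of KO replicate 3 and not with them; symbols mark replicates, blue is WT, orange is KO, and bars are group means. The orange triangle of KO replicate 3 lies above the other KO points for the 6 cell cycle genes at the left (11.96 for Ccna2) and nearer to WT than the other KO points for the other 8.

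The change in DP cells was set beside that in the less and more mature subsets, whose WT and KO arrays are separate. In the CD27 subset 321 probe sets (0.907%) were called, 0.257% higher and 0.65% lower, and in the CD11b subset 457 (1.29%), 0.455% higher and 0.836% lower. Of the 106 genes called in DP cells, 64 were called in the CD27 subset, 87 in the CD11b subset and 54 in both, and 105 and 106 had the same direction. Among the 43 genes higher in DP KO cells, 20 were called in the CD27 subset and 37 in the CD11b subset; among the 63 lower, 44 and 50 were. The 43 had a median change of 1.14 in DP, 0.71 in CD27 and 0.86 in CD11b cells, and the 63 of -0.77, -0.67 and -0.70; since the genes were chosen for their change in DP cells, the larger DP median is fixed in part by the choice. In DP cells alone 9 genes were called (Il10, Plk3, Plxdc1, Swap70, Marveld2, Pcnx, Ptpn4, Scoc and Dzank1), but none of them passed the test of a difference between subsets. A further, brighter Scoc probe set differed by -0.01 in DP cells (adjusted p = 0.989). Same-numbered KO arrays deviated together across subsets (correlation over probe sets 0.505 to 0.642 with CD27 and 0.300 to 0.578 with CD11b), so the subsets are not independent of each other.

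Individual genes lay at different places across maturation. Cd226 differed by 1.32 in DP and 1.42 in CD11b cells (adjusted p = 0.000811 and 0.000231) but by 0.29 in CD27 cells (adjusted p = 0.464); the difference of 1.03 between DP and CD27 did not pass (adjusted p = 0.974). Anxa8 differed by -0.04 in CD27, -1.82 in DP and -3.30 in CD11b cells, and Avil by -0.44, -1.31 and -2.04. Gata6 differed by -1.34, -1.70 and -2.70. Klrb1a ran the other way, at 1.39, 1.01 and 0.26, and Cd81 stood at 3.84, 3.13 and 2.74. None of these genes passed the test of a difference between subsets.

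**Figure D5:**
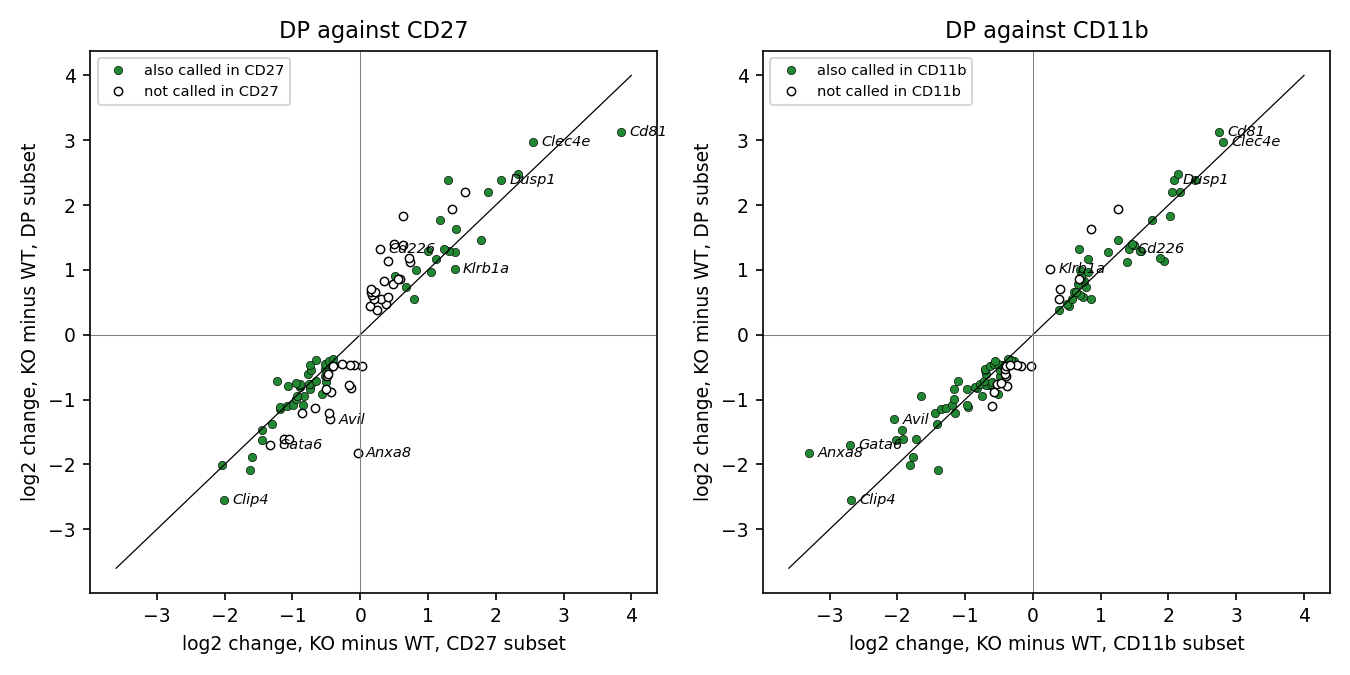
Log2 change (KO minus WT) in DP cells against that in the CD27 subset (left) and in the CD11b subset (right) for the 106 genes called in DP cells; filled points were also called in the other subset (64 and 87) and the line marks equal change. All but 1 gene in the left panel and all genes in the right one have the same sign on both axes.

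The test of whether the genotype change itself differed between subsets called 1 probe set for DP against CD27 (0.00282% of those tested). It called 2 for DP against CD11b (0.00565%). An unadjusted p under 0.05 was reached by 879 and 1521 of the 35399, fewer than the share of 0.05 that no difference anywhere would give. In none of the 3 called probe sets did the DP change pass its own test, although for Dscam and Nuak1 every DP KO array lay below every DP WT array. Dscam, a cell adhesion gene, differed by -0.43 in DP cells (adjusted p = 0.382) and fell by 2.27 in the CD27 subset, a difference of 1.84 ± 0.22 (adjusted p = 0.0344). In WT it stood at 6.69, 7.54 and 7.27 in CD27 cells and at 5.19, 5.54 and 5.14 in DP cells, and the DP KO arrays lay at 4.90, 4.73 and 4.95. Nuak1, a kinase gene of the AMPK family, differed by -0.42 in DP cells (adjusted p = 0.336) and fell by 3.25 in the CD11b subset, a difference of 2.82 ± 0.21 (adjusted p = 5.1e-05). Its WT arrays stood at 5.70, 5.20 and 5.58 in DP and at 8.69, 8.23 and 8.88 in CD11b cells. Ndrg2, a gene of the N-myc downstream regulated family, differed by -0.26 in DP cells (adjusted p = 0.585) and fell by 1.82 in the CD11b subset, a difference of 1.56 ± 0.20 (adjusted p = 0.0239). Its WT arrays stood at 6.68, 6.47 and 6.39 in DP and at 8.91, 9.05 and 8.93 in CD11b cells. On the DP WT arrays Dscam and Nuak1 lay below the median signal of the probe sets, 6.33, and Ndrg2 slightly above it. How far a low signal limits a fall in DP cells was not tested. With replicate number as a fixed block, which same-numbered WT and KO arrays share, Dscam and Ndrg2 were not called (adjusted p = 0.0581 and 0.0867). Nor were they without the 3 KO replicate 3 arrays (0.264 and 0.278), whereas Nuak1 was called in both fits (0.000191 and 0.00778). Nuak1 also kept its call when any 1 of the 18 arrays was left out (adjusted p at most 0.000432). Dscam was lost without any one of 13 arrays (up to 0.179, without DP WT replicate 3) and was kept without DP WT replicate 2, the CD27 WT replicates 1 to 3 or CD11b KO replicate 3. Ndrg2 was lost without any one of 9: DP WT replicates 2 and 3, DP KO replicates 2 and 3, CD27 KO replicate 1, CD11b WT replicates 2 and 3 and CD11b KO replicates 1 and 3 (up to 0.122, without DP WT replicate 2).

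Some called genes lie close together on a chromosome. Of the 106, 11 (10.4%) had another called gene among the 3 measured genes on either side, against 594 of 19813 genes that were not called (3.00%). The groups were Cd81 with Tspan32 on chromosome 7, both higher, Dtx1 with Oas3 on chromosome 5, both higher, Tmem42, Zdhhc3 and Exosc7 on chromosome 9, all lower, C1ql3 with Pter on chromosome 2, both lower, and Mad2l2 with Agtrap on chromosome 4, of which Mad2l2 rose by 1.18 and Agtrap fell by 0.41. Among the 200 measured genes nearest to Runx3, 100 on each side, none was called, against 0.532% of all placed genes.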

How the data were processed

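Signals of 18 Affymetrix arrays were taken from the series' value table. The values are log2 signals, made by the authors with RMA in Partek, per the submitters' processing notes; versions were not given in the sources used here. Array number, not read depth, limits the precision. Groups followed the labels. A limma model (3.58.1, R 4.3.3; statmod 1.5.0) took each of the 6 groups as its own level, over 35399 probe sets; adjusted p-values are Benjamini-Hochberg over all of them. An exact permutation of 3 arrays against 3 cannot go below p = 0.1. On simulated data 54.5%, 80% and 95.5% of probe sets changed 1.5-, 2- and 4-fold were recovered in the DP comparison. In these runs 6, 10 and 9 unchanged probe sets were called too. The simulated noise was independent between arrays, without the shared deviation of same-numbered KO arrays, so recovery in the real data may differ. Of the probe sets, 21789 carry 1 symbol, 1621 several and 11989 none; lists used the brightest probe set of each of 19938 genes, and named genes their called one.

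Named genes were 8 fixed ones, the 15 largest rises and falls whose groups did not overlap, other called genes by function, up to 10 rises and falls called only without KO replicate 3, up to 10 genes per subset test and 2 to 4 members per list, or marker values by array. The genes and lists were chosen with earlier results of these data known; Cd96, Crtam, Serpinb9b, Gzmb, Rrm2, Tgfb3, Mki67 and Aurkb were singled out after their values were seen. Same-numbered DP KO and WT arrays correlated at -0.07 to 0.04, so the numbers were not used as pairs.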

Additional observations from a re-analysis of the deposited data

Results flagged for a closer look

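In 3 genes the genotype change differed between subsets by the test of the difference itself, and in none of them did the DP change pass its own test. Dscam differed by 1.84 on the log2 scale between DP and CD27 cells, Nuak1 by 2.82 and Ndrg2 by 1.56 between DP and CD11b cells (log2 change in DP minus log2 change in the other subset). On the DP WT arrays Dscam and Nuak1 lay below the median signal of the probe sets, 6.33, and Ndrg2 slightly above it. How far a low signal limits a fall in DP cells was not tested. With 1 probe set called of 35399 for the first difference and 2 for the second, these are single genes in a background of 0.00282% and 0.00565% called. Same-numbered KO arrays deviated together across subsets, which the test of the difference does not take into account. A random block of replicate within genotype does so, and it called 2 probe sets for each difference. A fixed block of replicate number gives same-numbered WT and KO arrays 1 shared effect, so it does not model a deviation within KO alone. With the fixed block the calls of Dscam and Ndrg2 were lost (adjusted p = 0.0581 and 0.0867). They were also lost without the 3 KO replicate 3 arrays (0.264 and 0.278), and Nuak1 was called in both fits.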

How the results depend on the processing

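The 140 probe sets called in DP cells became 17 with the 6 DP arrays alone, 218 with array weights, 8 when a change over 1.5-fold was tested and 285 with Xist as a covariate; the 60 higher became 92 with cyclic loess, 9, 101 with array weights, 5, 129 with Xist and 129 without the 3 KO replicate 3 arrays; the 80 lower became 8, 3 and 156 with the DP arrays alone, 1.5-fold and Xist. With replicate number as a fixed block (replicate block), 274 were called, 133 higher and 141 lower; with it as a random block within genotype, 174. Leaving out 1 DP array gave 46 to 199 in all, 22 to 90 higher and 24 to 109 lower.

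For the DP against CD27 difference, the 1 call became 0 in the brighter probe sets, with 1.5-fold, the fixed block and without the KO replicate 3 arrays, 2 with weights or the random block, and 0 to 5 without single arrays. For DP against CD11b, the 2 became 1 with quantile normalization, brighter probe sets, 1.5-fold, the fixed block, Xist or without the KO replicate 3 arrays, and 1 to 4 without single arrays. The 197 called without the KO replicate 3 arrays became 81 with only the DP array left out, 5 with 5 DP arrays alone, and 35 to 216 without single arrays. The fits on DP arrays alone hold fewer samples. Leaving out 3 arrays of KO replicate 3 or the DP one alone gives each probe set the same DP change. Those 2 fits differ in the estimated spread and its degrees of freedom, to which the CD27 and CD11b arrays of that replicate add only in the second. For the other settings the cause was not tested. Of the 31 named genes counted here (the 30 largest changes and Runx3), none changed direction in the alternatives to the main fit. Genes that were not called could: Cd27 differed by -0.07 with all arrays and by 0.18 without the 3 KO replicate 3 arrays. Of the 31, 1 lost its call under quantile normalization, 2 under the fixed block and 6 without the KO replicate 3 arrays. With DP arrays alone 24 lost it, and with 1.5-fold 24. Fits without a single CD27 or CD11b array, and those repeated on the 15 arrays, were chosen after seeing the data.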
